A study of Danio rerio with 16 samples.

Results

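The genes described are the cartilage regulators SOX9 and the non-collagen matrix genes of cartilage, followed across zebrafish larvae exposed to PCB153. They were chosen by name: the duplicate pair sox9a and sox9b, the aggrecan pair acana and acanb, the matrilins matn1, matn3a and matn4, and cnmd, epyc and hapln1a. The choice was made with earlier results of these data known, so the shares of all genes set beside their counts are descriptions and not tests. These 10 names correspond to 11 of the 32105 genes in the count files, because 2 identifiers carry the symbol MATN3 and both are given. Some symbols are in the human form, and which SOX9 or MATN3 identifier is which zebrafish duplicate was not inferred. Only matn3a was named, so 1 of the 2 MATN3 identifiers may lie outside the choice, yet both enter every count of 11 genes. The libraries hold RNA from whole larvae of 5 days, exposed from hour 4 to hour 120 after fertilisation. The 4 groups are 0.1% DMSO, the solvent control, and PCB153 at 0.1, 1 and 10 µM, with 4 libraries each. PCB153 is a persistent polychlorinated biphenyl that does not act like dioxin. The labels give no strain, clutch, sex or number of larvae per library, so p-values measure only the spread between these libraries, which may be technical.

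Cartilage is laid down by chondrocytes, which surround themselves with collagen fibrils and with a gel of proteoglycans bound to hyaluronan. SOX9 is the transcription factor that commits cells to this fate and, in mammals, switches on the genes of collagen II, aggrecan, link protein and matrilin 1. In the zebrafish larva the jaw, the gill arches, the fin base and the braincase are largely cartilage at this age. SOX9 is not restricted to cartilage: it also marks Müller glia of the retina, the inner ear, ducts of the liver and pancreas and other progenitors, and in whole-larva RNA these sources are added together. For the same reason, fewer cells of a type and less RNA per cell cannot be told apart in these libraries.

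Between 8069225 and 15531744 reads were assigned to genes in each library, and the lowest read count of any described gene in any library was 132. Levels are given as CPM, counts per 1000000 reads in genes after TMM scaling, and they are compared between libraries of the same gene, not between genes, because no gene length enters them. Reads in no annotated feature, as a share of uniquely aligned reads, were 33.2 ± 1.92% in DMSO, 37.0 ± 1.12% at 0.1 µM, 37.3 ± 2.52% at 1 µM and 32.2 ± 0.75% at 10 µM (SD, n = 4). Replicates 2 and 4 of 0.1 µM and replicate 1 of 1 µM lay farthest from the mean of their groups over all genes. The part of either feature in the results below was not tested. Fits with that share as a covariate, and fits without these 3 libraries, stand below beside the calls of the described genes that they end and the list counts that they move by more than 1.5 times. The marker genes of cartilage were present in every library: the summed CPM of 12 cartilage collagens was 6509 to 8189 at 0.1 µM, 5496 to 6623 at 1 µM and 5255 to 6555 at 10 µM, against 7135 to 7461 in DMSO.

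Both SOX9 genes fell at 1 and 10 µM, and acana and MATN3 ENSDARG00000069265 rose at 10 µM while MATN4 and hapln1a fell. At 0.1 µM both SOX9 genes passed as well, but neither did with the share of reads in no feature as a covariate (adjusted p 0.0907 and 0.133), and the call of SOX9 ENSDARG00000043923 was lost in 17 of 24 alternatives. A gene is said to have risen or fallen where edgeR's quasi-likelihood test gave a Benjamini-Hochberg adjusted p under 0.05 over the 21372 genes tested, all 11 described genes among them. At 0.1 µM against DMSO 2 of the 11 genes changed, both lower, where 3.43% of all genes tested changed, 2.30% higher and 1.14% lower. At 1 µM 5 changed, 1 higher and 4 lower, beside 12.4% of all genes (7.13% higher and 5.27% lower). At 10 µM 6 changed, 2 higher and 4 lower, beside 18.3% of all genes (9.90% higher and 8.45% lower). The median log2 fold change of the 11 genes was -0.05, -0.08 and -0.11 at 0.1, 1 and 10 µM, and the median of all genes tested lay at 0.00, -0.01 and -0.01. The 3 comparisons share the DMSO libraries and are therefore not independent of each other. All 4 exposed libraries lay below all 4 DMSO libraries for 3 genes at 0.1 µM, 5 at 1 µM and 4 at 10 µM, beside 4.96%, 9.47% and 11.7% of all genes. They lay above them for 0, 0 and 3 genes, beside 5.03%, 9.75% and 13.2% of all genes.

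**Figure D1:**
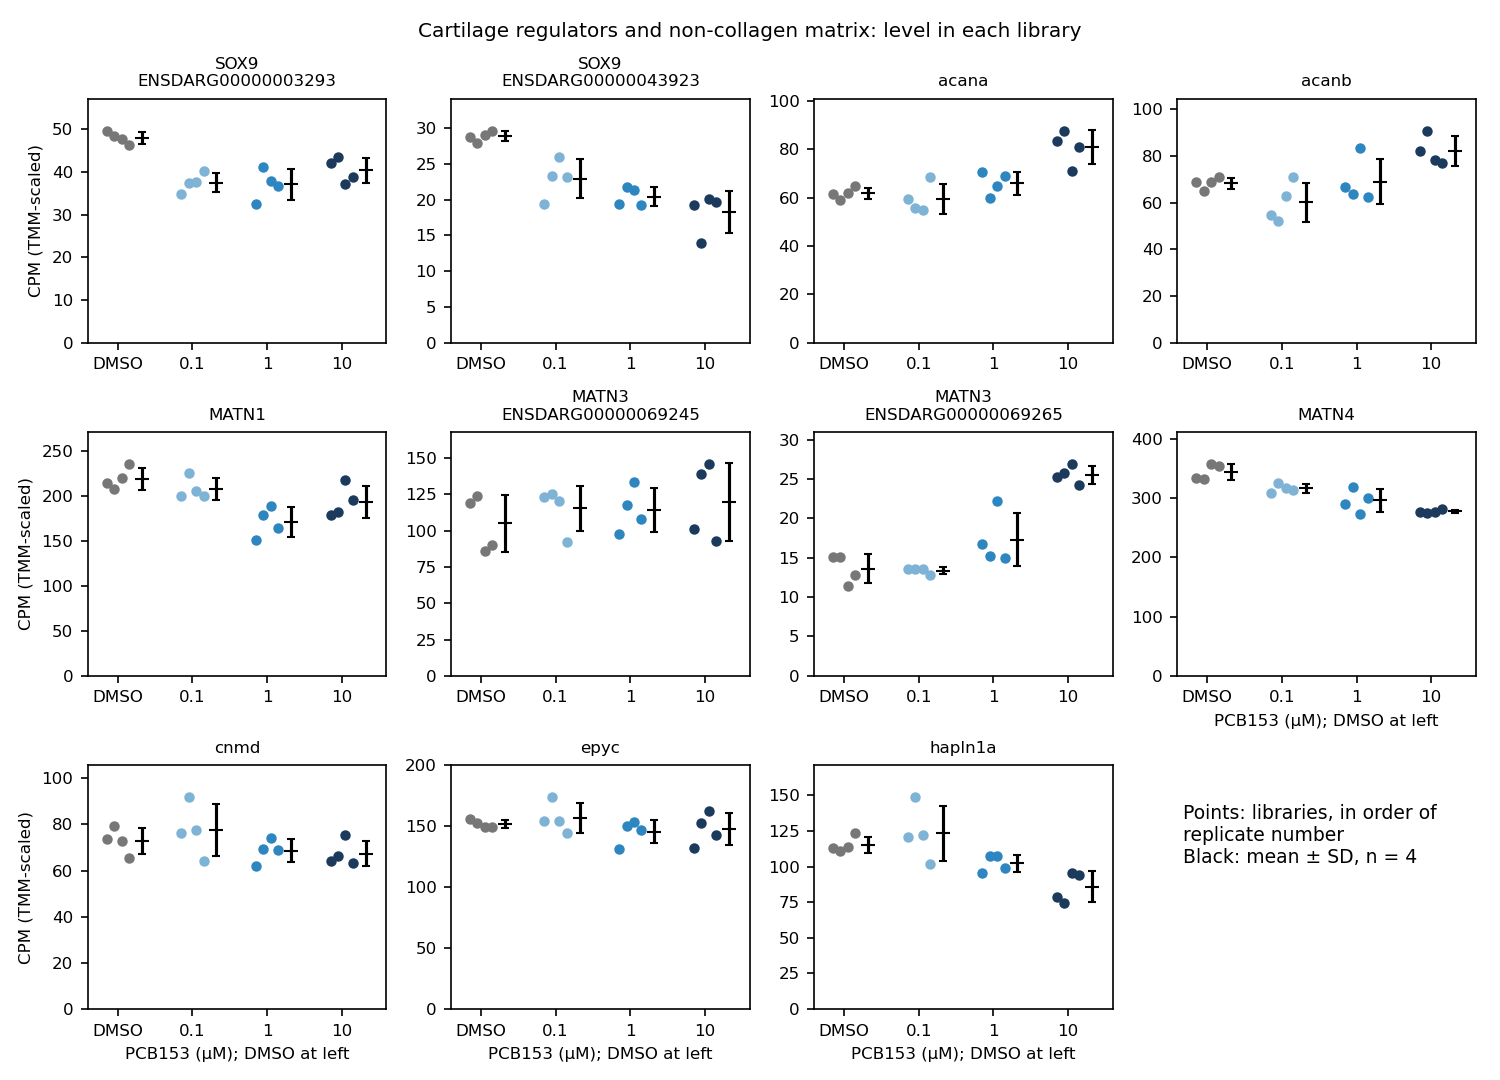
Level of each of the 11 genes in every library, in CPM with TMM scaling on a linear axis from 0, by PCB153 concentration in µM with DMSO at the left; points are libraries and black bars the mean ± SD of 4. Both SOX9 panels show every exposed library below every DMSO library, and the panel of MATN3 ENSDARG00000069265 shows the 4 libraries of 10 µM between 24.2 and 26.9 CPM, above all others.

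The SOX9 genes are, with MATN4, the 3 described genes of which every exposed library lay below every DMSO library. The share of all genes for which this held at all 3 concentrations together was not computed. SOX9 ENSDARG00000003293 had 49.6, 48.3, 47.8 and 46.3 CPM in the 4 DMSO libraries, 34.9, 37.5, 37.5 and 40.1 CPM at 0.1 µM, 32.6, 41.2, 37.9 and 36.6 CPM at 1 µM and 42.0, 43.5, 37.3 and 38.7 CPM at 10 µM. No exposed library reached the lowest DMSO library, and the 3 exposed groups overlapped one another. The gene fell by 21.8% at 0.1 µM, 22.4% at 1 µM and 15.9% at 10 µM, with log2 fold changes of -0.35 ± 0.07, -0.37 ± 0.07 and -0.25 ± 0.07 (SE) and adjusted p of 0.00336, 0.000943 and 0.0125 in edgeR's quasi-likelihood test. No pair of concentrations passed the test in this gene (adjusted p 0.961 for 1 against 0.1 µM, 0.287 for 10 against 0.1 µM and 0.347 for 10 against 1 µM), the 95% interval of the log2 difference between 10 and 0.1 µM being -0.04 to 0.25. With the share of reads in no feature as a covariate, the fall at 0.1 µM kept its size, at -0.34, but its adjusted p was 0.0907.

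SOX9 ENSDARG00000043923 had 28.8, 28.01, 29.1 and 29.7 CPM in the 4 DMSO libraries, 19.4, 23.3, 26.0 and 23.1 CPM at 0.1 µM, 19.4, 21.8, 21.4 and 19.2 CPM at 1 µM and 19.3, 13.9, 20.1 and 19.7 CPM at 10 µM. Here, too, every exposed library lay below every DMSO library, and replicate 2 of 10 µM, at 13.9 CPM, lay apart from its group. The gene fell by 29.2% at 1 µM and 36.6% at 10 µM, with log2 fold changes of -0.50 ± 0.10 and -0.66 ± 0.10 and adjusted p of 0.00126 and 4.81e-05 by edgeR. Without the low library the log2 fold change at 10 µM was -0.55, and it stayed past the threshold. At 0.1 µM it fell by 20.5% (log2 -0.33 ± 0.09), with an adjusted p of 0.0498 close to the threshold, and 17 of the 24 alternatives ended that call, among them leaving out any DMSO library (adjusted p 0.0815 to 0.121), leaving out replicate 1 of 0.1 µM (-0.26, adjusted p 0.154), leaving out the 3 farthest libraries (-0.35, adjusted p 0.122) and the covariate (-0.42, adjusted p 0.133). The level at 10 µM was also below that at 0.1 µM, by 0.33 on the log2 scale (adjusted p 0.0201), though the libraries of the 2 groups overlapped. That difference was not past the threshold without replicate 2 of 10 µM (log2 -0.22, adjusted p 0.0929), without replicate 3 of 0.1 µM (-0.27, adjusted p 0.0724), in a fit of the 8 libraries compared (-0.33, adjusted p 0.0672) or without the 3 farthest libraries (-0.31, adjusted p 0.0885). With the share of reads in no feature as a covariate it was -0.21 (adjusted p 0.474). The slope over the 4 groups, in order from DMSO to 10 µM, was -0.22 ± 0.03 log2 per group for this gene (adjusted p 5.99e-05) and -0.08 ± 0.03 for the other SOX9 gene (adjusted p 0.0798). The slope of SOX9 ENSDARG00000003293 passed with upper-quartile scaling (adjusted p 0.0429 by edgeR) and with the share of reads in no feature as a covariate (adjusted p 0.0162). It also passed without replicate 1 of 0.1 µM (adjusted p 0.0452) or replicate 2 of 10 µM (adjusted p 0.0456). In all, 5 of the 11 genes had a slope past the threshold, 2 higher and 3 lower, beside 18.0% of all genes (9.52% higher and 8.50% lower). With upper-quartile scaling, and likewise with the share of reads in no feature as a covariate, 7 had one, 2 higher and 5 lower.

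The ratio of ENSDARG00000003293 to ENSDARG00000043923 within a library needs no scaling and shows whether the pair moved unequally. Its log2 value averaged 0.71 ± 0.14 at 0.1 µM, 0.86 ± 0.09 at 1 µM and 1.16 ± 0.34 at 10 µM, against 0.73 ± 0.07 in DMSO (SD, n = 4 each). The 4 libraries of 10 µM, between 0.89 and 1.64, lay above the 4 DMSO libraries, between 0.64 and 0.79. The exact 2-sided permutation test gave p = 0.0286 for 10 µM, the smallest p that 4 against 4 allows, and 0.171 after Benjamini-Hochberg adjustment over the 6 ratio tests. The same ratio gave an exact permutation p of 0.886 at 0.1 µM and 0.0857 at 1 µM. None of the 6 passed the adjustment, and with 6 tests a single one at the smallest p cannot. The shift at 10 µM was 0.42 on the log2 scale, and 0.26 without replicate 2 of 10 µM.

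**Figure D2:**
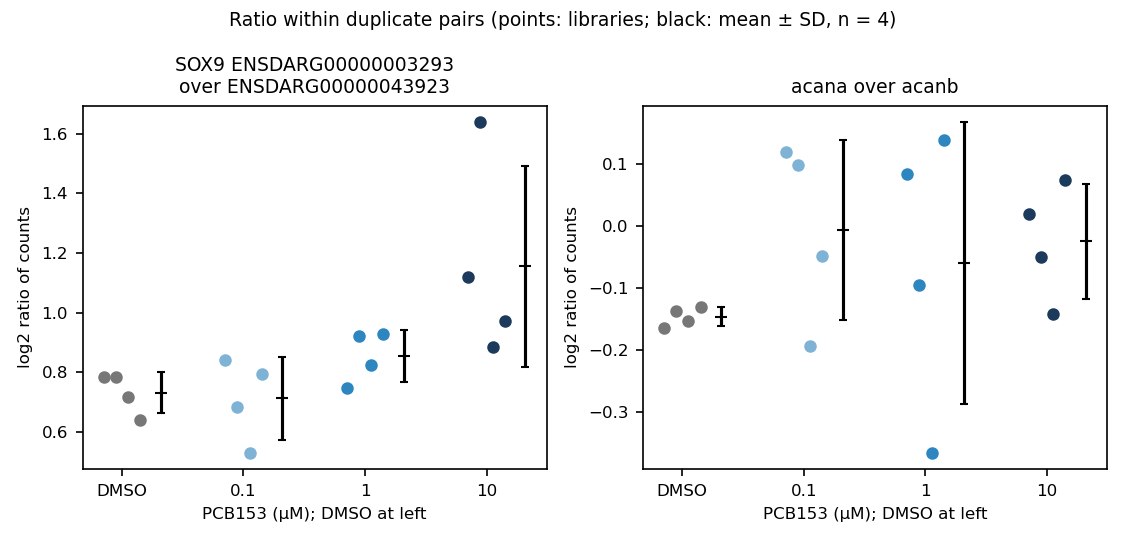
Log2 ratio of counts within each library for the SOX9 pair (left) and for acana over acanb (right), by PCB153 concentration in µM with DMSO at the left; points are libraries, black bars the mean ± SD of 4, and the axes do not start at 0. In the SOX9 panel the 4 libraries of 10 µM reach from 0.89 to 1.64 and the DMSO libraries from 0.64 to 0.79.

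Marker lists were read for the Müller glia of the retina and for the pancreas. The first list was written for Müller glia and retina and holds no gene chosen for photoreceptors. How far its genes mark glia or the retina in whole larvae was not tested. The pancreas list marks its enzyme-secreting cells and not the ducts, and no list covered the ducts, the liver or the inner ear. Summed CPM of 8 genes of Müller glia and retina was 1578 to 1803 at 0.1 µM, 1769.6 to 2112 at 1 µM and 2119 to 2304 at 10 µM, against 1596 to 1743 in DMSO. Of these genes 0 rose and 0 fell at 0.1 µM, 2 rose and 0 fell at 1 µM, and 4 rose and 0 fell at 10 µM. In either direction this made 0, 25% and 50% of the list, beside 3.43%, 12.4% and 18.3% of all genes. The number that rose at 1 µM was 1 without replicates 1, 2 or 4 of DMSO or replicates 1, 3 or 4 of 1 µM, and 1 with the share of reads in no feature as a covariate. The GLUL genes, which encode glutamine synthetase, were among the 4 that rose at 10 µM. ENSDARG00000099776 had 527 ± 24.2 CPM at 10 µM against 309 ± 8.23 CPM in DMSO (log2 0.77 ± 0.07, adjusted p 1.02e-07 by edgeR). ENSDARG00000100003 had 323 ± 30.1 CPM at 10 µM against 211 ± 10.6 CPM in DMSO (log2 0.61 ± 0.08, adjusted p 3.04e-05). Over the list the median log2 fold change at 10 µM was 0.28, and 2 of the 8 estimates lay below 0, the lowest at -0.14. Of 8 genes of the exocrine pancreas 0 passed edgeR's test, or DESeq2, at any concentration against DMSO, with 5, 0 and 0 at an unadjusted p under 0.05 at 0.1, 1 and 10 µM. Their summed CPM was 2223 to 3762 at 0.1 µM, 2757 to 5666 at 1 µM and 4986 to 6082 at 10 µM, against 2802 to 5973 in DMSO. Between 10 and 0.1 µM, where SOX9 ENSDARG00000043923 was lower, 5 of the 8 pancreas genes were higher at 10 µM, beside 10.8% of all genes. The median log2 difference over the pancreas list was 0.92. The part of these tissues in the SOX9 levels was not tested.

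Aggrecan is the large proteoglycan whose sulphated chains hold water in cartilage. Both zebrafish copies were higher at 10 µM than at 0.1 µM, and acana also rose against DMSO. The gene acana had 61.3, 59.0, 61.9 and 64.6 CPM in the 4 DMSO libraries, 59.4, 55.6, 55.0 and 68.4 CPM at 0.1 µM, 70.5, 59.7, 64.7 and 69.0 CPM at 1 µM and 83.4, 87.7, 71.1 and 81.0 CPM at 10 µM. The 4 libraries of 10 µM lay above all 4 DMSO libraries and above all libraries of the lower concentrations. Against DMSO acana was 30.9% higher at 10 µM, with a log2 fold change of 0.39 ± 0.07 (adjusted p 0.000699), and its estimates at 0.1 and 1 µM were -0.05 ± 0.07 (adjusted p 0.793) and 0.09 ± 0.07 (adjusted p 0.454). Against 0.1 µM the log2 difference at 10 µM was 0.44 ± 0.07 (adjusted p 0.000311), and against 1 µM 0.29 ± 0.07 (adjusted p 0.0201). Neither passed with the share of reads in no feature as a covariate (0.36, adjusted p 0.0970, and 0.21, adjusted p 0.60). The difference from 1 µM was not past the threshold without replicate 2 of 1 µM or without replicate 1 or 2 of 10 µM, where it was between 0.25 and 0.28 (adjusted p 0.0644 to 0.0883).

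The gene acanb had 68.7, 64.9, 68.9 and 70.8 CPM in the 4 DMSO libraries, 54.7, 51.9, 62.9 and 70.8 CPM at 0.1 µM, 66.5, 63.8, 83.3 and 62.6 CPM at 1 µM and 82.3, 90.9, 78.4 and 77.0 CPM at 10 µM. At 10 µM its libraries again lay above all DMSO libraries, yet they overlapped with 1 library of 1 µM at 83.3 CPM. The log2 fold change at 10 µM against DMSO was 0.27 ± 0.09, with an adjusted p of 0.0561 that misses the threshold. It passed in DESeq2 (0.27, adjusted p 0.0455), in a fit of the 8 libraries compared (0.27, adjusted p 0.00147) and without replicate 3 of 1 µM (0.27, adjusted p 0.0187) or replicate 2 or 4 of 0.1 µM (both 0.26, adjusted p 0.0333 and 0.0248), and without the 3 farthest libraries (0.26, adjusted p 0.0244). At 0.1 µM the estimate was -0.18 ± 0.09 (adjusted p 0.335), with 3 of the 4 libraries below all DMSO libraries, and at 1 µM it was 0.02 ± 0.09 (adjusted p 0.944). Between 10 and 0.1 µM the groups did not overlap, and the log2 difference was 0.45 ± 0.09 (adjusted p 0.00278). With the share of reads in no feature as a covariate that difference was 0.39 (adjusted p 0.187). Between 10 and 1 µM it was 0.25 ± 0.09 (adjusted p 0.128), and 0.35, adjusted p 0.0207 without replicate 3 of 1 µM. The log2 ratio of acana to acanb was -0.03 ± 0.09 at 10 µM and -0.15 ± 0.02 in DMSO (SD, n = 4 each), a difference with an exact permutation p of 0.0857. The SD of the ratio was 0.14 at 0.1 µM, 0.23 at 1 µM and 0.09 at 10 µM, each above that in DMSO. Each SD rests on 4 libraries. The difference in spread, and the part of counting noise in it, was not tested.

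Link protein, encoded by hapln1a, fastens aggrecan to hyaluronan. It moved the other way from aggrecan at the highest concentration. Its gene had 113, 111, 114 and 123 CPM in the 4 DMSO libraries, 121, 149, 122 and 102 CPM at 0.1 µM, 95.2, 107, 107 and 99.0 CPM at 1 µM and 78.4, 74.4, 95.6 and 94.4 CPM at 10 µM. All 4 libraries of 10 µM lay below all DMSO libraries and below all libraries of 0.1 µM. It fell by 25.6% at 10 µM, a log2 fold change of -0.43 ± 0.10 (adjusted p 0.00536). At 1 µM its 4 libraries also lay below the DMSO libraries, but the estimate of -0.17 ± 0.10 did not pass (adjusted p 0.282), and at 0.1 µM the estimate was 0.10 ± 0.10 (adjusted p 0.669), with replicate 2 at 149 CPM. Between 10 and 0.1 µM the direct log2 difference was -0.52 ± 0.10 (adjusted p 0.00127). With the share of reads in no feature as a covariate that difference was -0.46 (adjusted p 0.126). Between 10 and 1 µM it was -0.26 ± 0.10 (adjusted p 0.134), and -0.26, adjusted p 0.0435 without replicate 2 of 0.1 µM and -0.29, adjusted p 0.0177 without the 3 farthest libraries. Between 1 and 0.1 µM it was -0.27 ± 0.10 (adjusted p 0.175), and -0.35, adjusted p 0.0316 without replicate 4 of 0.1 µM. Across the 16 libraries the log2 CPM of hapln1a and acana had a Pearson r of -0.91, and -0.72 after subtraction of the group means, a description over libraries that share their groups and their scaling.

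Epiphycan, encoded by epyc, is a small leucine-rich proteoglycan of growth cartilage in mammals. Its gene had 156, 152, 149 and 149 CPM in the 4 DMSO libraries, 154, 174, 154 and 145 CPM at 0.1 µM, 132, 150.01, 154 and 147 CPM at 1 µM and 132, 153, 163 and 143 CPM at 10 µM. The exposed libraries overlapped the DMSO libraries at every concentration and spread more widely than these. The estimates against DMSO were 0.05 ± 0.07, -0.06 ± 0.07 and -0.04 ± 0.07 at 0.1, 1 and 10 µM (adjusted p 0.779, 0.645 and 0.733), with a 95% interval at 10 µM of -0.18 to 0.10. Chondromodulin, encoded by cnmd, is a membrane protein of cartilage that keeps blood vessels out in mammals. It had 73.5, 79.1, 72.9 and 65.5 CPM in the 4 DMSO libraries, 76.4, 91.8, 77.5 and 64.3 CPM at 0.1 µM, 62.1, 69.2, 73.9 and 69.1 CPM at 1 µM and 64.1, 66.2, 75.2 and 63.4 CPM at 10 µM. These groups overlapped as well, with replicate 2 of 0.1 µM the highest at 91.8 CPM. The estimates were 0.09 ± 0.09, -0.08 ± 0.09 and -0.11 ± 0.09 (adjusted p 0.654, 0.608 and 0.402), and the 95% interval at 10 µM was -0.30 to 0.07. Between 10 and 0.1 µM cnmd differed by -0.21 ± 0.09 (adjusted p 0.0995), and without replicate 4 of 0.1 µM by -0.29 (adjusted p 0.0093), without replicate 3 of 10 µM by -0.26 (adjusted p 0.0454).

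Matrilins are adaptor proteins that tie collagen fibrils to proteoglycans. Of the 4 matrilin genes given here, against DMSO 1 fell at both higher concentrations, 1 fell at 1 µM, 1 rose at 1 and 10 µM and 1 passed no test. MATN4, the matrilin with the widest distribution outside cartilage in mammals, had 334, 333, 358 and 354 CPM in the 4 DMSO libraries, 309, 326, 318 and 314 CPM at 0.1 µM, 290.1, 319.8, 274 and 301 CPM at 1 µM and 277, 276, 277 and 282 CPM at 10 µM. The libraries of all 3 exposed groups lay below all DMSO libraries, and those of 10 µM stood between 276 and 282 CPM. MATN4 fell by 14.0% at 1 µM and 19.3% at 10 µM, with log2 fold changes of -0.22 ± 0.05 and -0.31 ± 0.05 (adjusted p 0.00725 and 0.000238), while the estimate of -0.12 ± 0.05 at 0.1 µM did not pass (adjusted p 0.218). The slope was -0.10 ± 0.02 log2 per group (adjusted p 0.000264). The level at 10 µM was lower than at 0.1 µM by 0.19 on the log2 scale (adjusted p 0.0133), without overlap of the libraries, but not past the threshold with the 3 farthest libraries left out (-0.18, adjusted p 0.064). With the share of reads in no feature as a covariate that difference was -0.08 (adjusted p 0.573).

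MATN1, a matrilin of differentiated cartilage, had 214, 207, 219 and 235 CPM in the 4 DMSO libraries, 200.01, 225, 205 and 199.97 CPM at 0.1 µM, 151, 179, 189 and 165 CPM at 1 µM and 178, 182, 217 and 195 CPM at 10 µM. Only the libraries of 1 µM lay below all DMSO libraries, and those of 0.1 and 10 µM overlapped with them. The gene fell by 21.9% at 1 µM (log2 -0.36 ± 0.07, adjusted p 0.00189). At 0.1 µM the estimate was -0.08 ± 0.07 (adjusted p 0.643), and at 10 µM it was -0.18 ± 0.07 (adjusted p 0.0785). The estimate at 10 µM passed with upper-quartile scaling (-0.23, adjusted p 0.0284), in a fit of the 8 libraries compared (-0.18, adjusted p 0.0353), without replicate 3 of 10 µM (-0.24, adjusted p 0.0231) and without the 3 farthest libraries (-0.18, adjusted p 0.0351). The difference between 10 and 1 µM was 0.17 ± 0.07 (adjusted p 0.156), so the level at 1 µM was not shown to differ from that at 10 µM. The difference between 1 and 0.1 µM was -0.28 ± 0.07, without overlap, with an adjusted p of 0.0598. It passed in DESeq2 (-0.28, adjusted p 0.0195), without the filter on low counts (-0.29, adjusted p 0.0365), and without replicate 1 or 4 of 0.1 µM, replicate 2 of 1 µM or replicate 3 of 10 µM (adjusted p 0.0361 to 0.0487). The slope of MATN1 was -0.08 ± 0.03 log2 per group (adjusted p 0.0528 by edgeR). That slope passed with upper-quartile scaling (adjusted p 0.0234) and with the share of reads in no feature as a covariate (adjusted p 0.0327). It also passed without replicate 1 of 1 µM (adjusted p 0.0429), replicate 3 of 10 µM (adjusted p 0.0117) or the 3 farthest libraries (adjusted p 0.0452).

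Matrilin 3, mutated in human multiple epiphyseal dysplasia, is the symbol of 2 of the identifiers. Which of them is matn3a, the duplicate named in the choice, was not resolved. MATN3 ENSDARG00000069265 had 15.1, 15.1, 11.5 and 12.8 CPM in the 4 DMSO libraries, 13.5, 13.5, 13.6 and 12.8 CPM at 0.1 µM, 16.7, 15.2, 22.2 and 15.0 CPM at 1 µM and 25.2, 25.8, 26.9 and 24.2 CPM at 10 µM. The 4 libraries of 10 µM lay above all other libraries, and this was the largest change among the 11 genes: 1.88-fold against DMSO, a log2 fold change of 0.91 ± 0.11 (adjusted p 2.8e-06). Directly compared, 10 µM was above 0.1 µM by 0.93 ± 0.11 (adjusted p 1.46e-05) and above 1 µM by 0.56 ± 0.11 (adjusted p 0.00354). The difference from 1 µM did not pass with the share of reads in no feature as a covariate (0.33, adjusted p 0.524). At 1 µM the gene rose by 0.35 ± 0.11 (adjusted p 0.0426) on the log2 scale, with libraries that overlapped DMSO, and replicate 3 was the highest at 22.2 CPM. Without that library the estimate was 0.20, adjusted p 0.211. It was also not past the threshold without replicate 3 of DMSO (0.27, adjusted p 0.145), replicate 4 of DMSO (0.32, adjusted p 0.109), replicate 1 of 1 µM (0.36, adjusted p 0.0622) or replicate 1 or 4 of 10 µM (adjusted p 0.0507 for both). The call was also lost with upper-quartile scaling (0.32, adjusted p 0.0571), in a fit of the 8 libraries compared (0.35, adjusted p 0.0883) and without the 3 farthest libraries (0.36, adjusted p 0.0613), 9 of 24 alternatives in all. At 0.1 µM the estimate was -0.02 ± 0.11 (adjusted p 0.944).

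MATN3 ENSDARG00000069245 had 119, 124, 86.3 and 90.2 CPM in the 4 DMSO libraries, 123, 125, 120.2 and 92.5 CPM at 0.1 µM, 98.0, 117, 133 and 108 CPM at 1 µM and 101, 139, 146 and 92.6 CPM at 10 µM. Each group held high and low libraries, and all groups overlapped. In DMSO replicates 1 and 2 were at 119 and 124 CPM and replicates 3 and 4 at 86.3 and 90.2 CPM. The estimates were 0.14 ± 0.17, 0.12 ± 0.17 and 0.19 ± 0.17 at 0.1, 1 and 10 µM (adjusted p 0.756, 0.708 and 0.507). The 95% interval at 10 µM, -0.19 to 0.56, is wide enough to hold a change of the size seen in other genes here, and the group SDs were 13.1% to 22.4% of the mean, against 1.00% to 6.50% for MATN4. After subtraction of the group means the 2 MATN3 genes had a Pearson r of 0.66 over the 16 libraries.

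**Figure D3:**
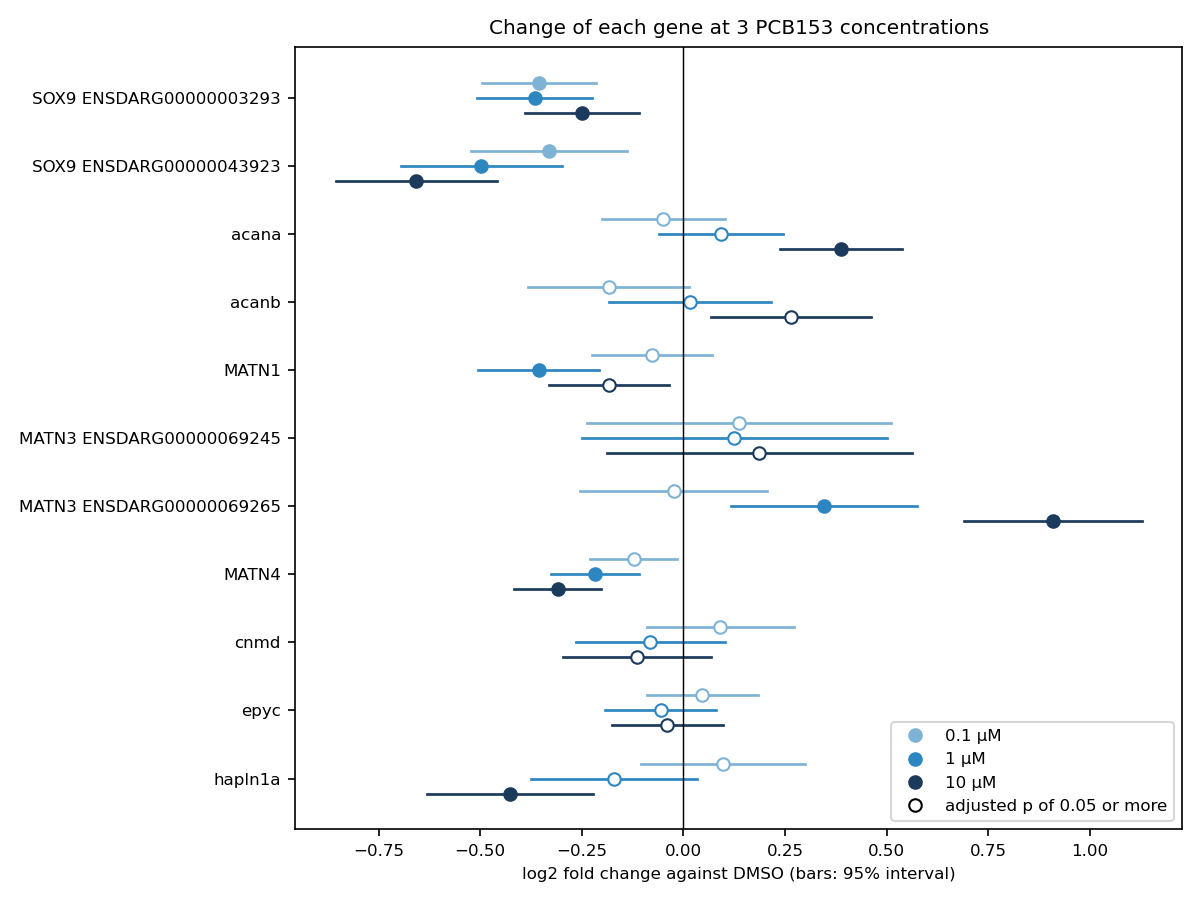
Log2 fold change of each gene against DMSO at 0.1, 1 and 10 µM PCB153 with 95% intervals; filled points have an adjusted p under 0.05 by edgeR. The 6 filled points of 10 µM run from -0.66 for SOX9 ENSDARG00000043923 to 0.91 for MATN3 ENSDARG00000069265.

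Compared directly, the concentrations differed in several of these genes. Between 1 and 0.1 µM 0 of 11 genes passed edgeR's test, beside 0.973% of all genes. Of the 11 genes 4 had an unadjusted p under 0.05, and DESeq2 called 1, MATN1. Between 10 and 0.1 µM 6 genes passed, beside 21.4% of all genes (10.8% higher and 10.6% lower). The genes acana, acanb and MATN3 ENSDARG00000069265 were higher at 10 µM, and SOX9 ENSDARG00000043923, MATN4 and hapln1a were lower. Of these 6, 1 passed with the share of reads in no feature as a covariate, MATN3 ENSDARG00000069265 (0.70, adjusted p 0.0287). The log2 difference of acana was then 0.36, adjusted p 0.0970, that of acanb 0.39, adjusted p 0.187 and that of hapln1a -0.46, adjusted p 0.126, against 0.44, 0.45 and -0.52 without the covariate. MATN4 then differed by -0.08, adjusted p 0.573 and SOX9 ENSDARG00000043923 by -0.21, adjusted p 0.474, against -0.19 and -0.33. That share was 32.2% at 10 µM and 37.0% at 0.1 µM on average, so it differs between the groups compared. Marker lists differed between these 2 concentrations as well. At 10 µM 5 of 8 exocrine pancreas genes, 4 of 8 genes of Müller glia and retina and 4 of 9 fast muscle genes were higher. The list medians were 0.92, 0.22 and 0.19 on the log2 scale. In the same comparison 6 of 10 epidermis genes and 9 of 12 cartilage collagens were lower (medians -0.24 and -0.35). Other lists moved less: 1 of 10 osteoblast genes was higher and 2 were lower, 1 of 6 notochord genes was higher and 2 of 6 tendon genes were lower. Of the 9 fast muscle genes 1 was lower. At 10 µM against DMSO, where the share averaged 33.2% in DMSO, 7 of 10 epidermis genes and 9 of 12 cartilage collagens were also lower. There 4 of 8 genes of Müller glia and retina were higher, and 0 of the exocrine pancreas or fast muscle genes. The part of these tissues in the 6 differences was not tested. Between 10 and 1 µM acana and MATN3 ENSDARG00000069265 passed, both higher at 10 µM, as were 4 of 8 genes of Müller glia and retina, beside 6.15% of all genes (3.11% higher and 3.05% lower), and neither did with that covariate (0.21, adjusted p 0.60, and 0.33, adjusted p 0.524). A single test of any difference among the 4 groups was passed by 8 of the 11 genes, beside 25.8% of all genes, and the 3 that did not pass were MATN3 ENSDARG00000069245 (adjusted p 0.818), cnmd (adjusted p 0.230) and epyc (adjusted p 0.561).

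The 11 genes did not share a single pattern. Within groups, that is after subtraction of the group means, 5 of the 55 pairs of genes had a Pearson r above 0.7 and 22 had one below 0. The pairs with the highest r were cnmd and epyc (0.83), MATN1 and hapln1a (0.78), MATN3 ENSDARG00000069245 and epyc (0.75), MATN3 ENSDARG00000069245 and cnmd (0.74), and MATN1 and epyc (0.74). The lowest were MATN3 ENSDARG00000069265 and MATN4 (-0.84), acana and cnmd (-0.78) and acana and hapln1a (-0.72). With the mean of the other 10 genes the r over the 16 libraries ran from -0.37 for acana to 0.61 for MATN1. The libraries share groups, depth and scaling, so these values are descriptions. The 5 other genes most like the mean of the 11, by Pearson r over the 16 libraries among 16915 candidates, were PKM (0.91), CDK5RAP3 (0.91), ATP5F1A (0.91), ATP5PF (0.90) and OTX1 ENSDARG00000094992 (0.88). After subtraction of the group means their r was 0.89, 0.90, 0.87, 0.91 and 0.80, so the likeness lay largely between libraries within groups. Against DMSO only OTX1 passed, and only at 1 µM (log2 -0.33 ± 0.10, adjusted p 0.0304 by edgeR). PKM encodes a glycolytic enzyme, and ATP5F1A and ATP5PF encode subunits of the mitochondrial ATP synthase.

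Neighbours on the chromosome, a comparison chosen after values of these data were seen, were read from the RefSeq gene order of assembly GRCz12tu, which is not the build of the count files. Link protein genes sit beside genes of the aggrecan family: hapln3 is next to acanb and vcana, a versican gene, is next to hapln1a, while kera, which encodes the related proteoglycan keratocan, is next to epyc. None of the 3 passed the test against DMSO. At 10 µM hapln3 had a log2 fold change of -0.14 ± 0.12 (adjusted p 0.451), vcana one of -0.09 ± 0.12 (adjusted p 0.663) and kera one of -0.13 ± 0.12 (adjusted p 0.491). Of 12 neighbours with an identifier 11 were tested. By edgeR 1 rose and 1 fell at 1 µM, sesn2 beside matn1 (0.55 ± 0.14, adjusted p 0.00989) and si:dkeyp-38g8.5 beside epyc (-0.52 ± 0.16, adjusted p 0.0307), and 1 fell at 10 µM, ppip5k1b beside acanb (-0.30 ± 0.08, adjusted p 0.0118), where 12.4% and 18.3% of all genes passed.

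The collagens of cartilage, the fibrous partners of these proteins, are SOX9 targets in mammals in the case of collagens II, IX and XI. Of 12 tested collagen genes 0 rose and 1 fell at 0.1 µM, 0 rose and 3 fell at 1 µM, and 0 rose and 9 fell at 10 µM. In either direction this made 1 (8.33%), 3 (25%) and 9 (75%) of the list at 0.1, 1 and 10 µM, beside 3.43%, 12.4% and 18.3% of all genes. Their median log2 fold change was 0.05, -0.19 and -0.30 at 0.1, 1 and 10 µM. COL10A1 ENSDARG00000054753, a collagen of hypertrophic chondrocytes and, in fish, of bone-forming cells, had 152 ± 5.74 CPM at 10 µM against 268 ± 48.0 CPM in DMSO (log2 -0.82 ± 0.11, adjusted p 5.83e-05). COL2A1 ENSDARG00000011407, a gene of the main fibril collagen, had 478 ± 40.8 CPM at 10 µM against 627 ± 17.1 CPM in DMSO (log2 -0.39 ± 0.07, adjusted p 0.000262). COL11A1 ENSDARG00000026165 and COL9A2, partners of collagen II in the fibril, fell by 0.35 and 0.36 on the log2 scale at 10 µM (adjusted p 0.00327 and 0.00372). The number that fell at 1 µM was 1 to 5 without replicates 2, 3 or 4 of DMSO, replicate 2 of 0.1 µM or replicates 1 or 4 of 1 µM, and 0 with the share of reads in no feature as a covariate. The 1 that fell at 0.1 µM was lost with the covariate and without the 3 farthest libraries. At 10 µM the number that fell was 6 to 9 over all alternatives.

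Of 29 other matrix genes of cartilage and its surroundings 0 rose and 0 fell at 0.1 µM, 3 rose and 3 fell at 1 µM, and 5 rose and 1 fell at 10 µM. In either direction this made 0, 6 (20.7%) and 6 (20.7%) of the list at 0.1, 1 and 10 µM, beside 3.43%, 12.4% and 18.3% of all genes. The median log2 fold change was 0.02, -0.07 and -0.01. The gene prg4b, which encodes a lubricin, had 12.3 ± 1.51 CPM at 10 µM against 7.47 ± 1.16 CPM in DMSO (log2 0.73 ± 0.13, adjusted p 0.000328). CILP2, a gene of cartilage intermediate layer protein, had 25.6 ± 1.98 CPM at 10 µM against 17.4 ± 0.654 CPM in DMSO (log2 0.55 ± 0.09, adjusted p 0.000217). THBS4 ENSDARG00000020072, which encodes a thrombospondin of tendon attachments, had 149 ± 8.84 CPM at 10 µM against 117 ± 9.52 CPM in DMSO (log2 0.34 ± 0.07, adjusted p 0.00200). The gene vcanb, a versican of early and soft matrix, fell at 1 µM (-0.34 ± 0.07, adjusted p 0.00191) and at 10 µM (-0.30 ± 0.07, adjusted p 0.00317). The number that rose at 10 µM was 3 without replicate 1 of 10 µM. At 1 µM the number that rose was 1 without replicate 1 of 1 µM, and the number that fell was 1 without replicate 4 of DMSO or replicate 3 of 1 µM. With the share of reads in no feature as a covariate 0 rose and 1 fell at 1 µM. At 10 µM the number that fell was 2 to 3 without replicates 2 or 4 of 0.1 µM or replicate 3 of 10 µM, and 3 without the 3 farthest libraries.

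Of 33 genes for the assembly, sulphation and secretion of proteoglycan chains 2 rose and 0 fell at 0.1 µM, 7 rose and 1 fell at 1 µM, and 4 rose and 1 fell at 10 µM. In either direction this made 2 (6.06%), 8 (24.2%) and 5 (15.2%) of the list at 0.1, 1 and 10 µM, beside 3.43%, 12.4% and 18.3% of all genes, so the share at 10 µM was below that of all genes. SLC26A2, the sulphate transporter whose loss causes human chondrodysplasias, rose at 0.1 µM (0.42 ± 0.09, adjusted p 0.0103), 1 µM (0.32 ± 0.09, adjusted p 0.0286) and 10 µM (0.43 ± 0.09, adjusted p 0.00226). CHST13, a chondroitin sulphotransferase, had 11.02 ± 1.14 CPM at 1 µM against 6.82 ± 0.854 CPM in DMSO (log2 0.69 ± 0.13, adjusted p 0.000782), and it also rose at 0.1 µM (0.48 ± 0.13, adjusted p 0.0345). SEC24D, a coat protein of the vesicles that carry matrix out of the endoplasmic reticulum, and one that zebrafish need for cartilage, rose at 1 µM (0.35 ± 0.09, adjusted p 0.0166) and 10 µM (0.39 ± 0.09, adjusted p 0.00539). CSGALNACT1, an enzyme that starts chondroitin chains, fell at 10 µM (-0.29 ± 0.08, adjusted p 0.0110). The number that rose at 0.1 µM was 1 to 5 without replicates 1, 3 or 4 of DMSO or replicates 1, 2, 3 or 4 of 0.1 µM. At 1 µM it was 2 to 3 without replicates 1, 2, 3 or 4 of DMSO or replicates 1, 2, 3 or 4 of 1 µM, and at 10 µM it was 2 without replicates 3 or 4 of DMSO. With the share of reads in no feature as a covariate 0 rose at 0.1 µM, and 2 rose and 0 fell at 1 µM. Without the 3 farthest libraries 4 rose at 1 µM.

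Of 25 transcription factors of the skeleton other than SOX9, 0 rose and 0 fell at 0.1 µM, 1 rose and 5 fell at 1 µM, and 0 rose and 6 fell at 10 µM. In either direction this made 0, 6 (24%) and 6 (24%) of the list at 0.1, 1 and 10 µM, beside 3.43%, 12.4% and 18.3% of all genes. At 10 µM foxc1b, a gene for a factor of head mesenchyme, had 13.2 ± 0.639 CPM against 18.6 ± 1.94 CPM in DMSO (log2 -0.49 ± 0.09, adjusted p 0.000774). BARX1, a gene for a factor of jaw cartilage and joints, had 4.00 ± 0.143 CPM at 10 µM against 6.13 ± 0.576 CPM in DMSO (log2 -0.61 ± 0.14, adjusted p 0.00482). RUNX3 and DLX3 fell at 10 µM by 0.28 and 0.29 on the log2 scale (adjusted p 0.0152 and 0.0179). PRRX1 ENSDARG00000033971, of limb and jaw mesenchyme, fell at 1 µM (-0.48 ± 0.13, adjusted p 0.0174). The number that fell at 1 µM was 2 to 3 without replicates 1, 3 or 4 of DMSO, replicate 3 of 0.1 µM, replicates 1, 3 or 4 of 1 µM or replicates 1 or 2 of 10 µM, and at 10 µM it was 3 without replicate 2 of 10 µM. With the share of reads in no feature as a covariate 2 fell and 0 rose at 1 µM, and without the 3 farthest libraries 3 fell and 2 rose.

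Of 23 genes for cartilage signals and receptors 0 rose and 0 fell at 0.1 µM, 2 rose and 2 fell at 1 µM, and 1 rose and 2 fell at 10 µM. In either direction this made 0, 4 (17.4%) and 3 (13%) of the list at 0.1, 1 and 10 µM, beside 3.43%, 12.4% and 18.3% of all genes. The number that fell at 1 µM was 0 to 1 without replicates 1, 2, 3 or 4 of DMSO, replicates 3 or 4 of 0.1 µM, replicates 1, 2, 3 or 4 of 1 µM or replicates 1, 2 or 3 of 10 µM, 0 without the 3 farthest libraries, and 0 in DESeq2. The number that rose at 1 µM was 1 without replicate 3 of DMSO or replicates 1, 3 or 4 of 1 µM. With the share of reads in no feature as a covariate 0 rose and 0 fell at 1 µM, and 1 fell at 10 µM. At 10 µM the number that fell was 1 without replicates 1, 2, 3 or 4 of DMSO or replicates 1, 2 or 3 of 10 µM, and the number that rose there was 0 to 1 over all alternatives.

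Of 22 matrix proteases and their inhibitors 0 rose and 0 fell at 0.1 µM, 2 rose and 2 fell at 1 µM, and 2 rose and 4 fell at 10 µM. In either direction this made 0, 4 (18.2%) and 6 (27.3%) of the list at 0.1, 1 and 10 µM, beside 3.43%, 12.4% and 18.3% of all genes. ADAMTS8 ENSDARG00000007709, a secreted metalloprotease, had 16.2 ± 1.32 CPM at 10 µM against 10.5 ± 0.619 CPM in DMSO (log2 0.62 ± 0.13, adjusted p 0.00165). MMP15 ENSDARG00000051962, a membrane-bound metalloprotease, had 25.0 ± 0.895 CPM at 10 µM against 32.1 ± 0.516 CPM in DMSO (log2 -0.36 ± 0.06, adjusted p 0.000251). MMP2, a gelatinase, fell at 1 µM (-0.23 ± 0.07, adjusted p 0.0274) and 10 µM (-0.23 ± 0.07, adjusted p 0.0167). The number that fell at 10 µM was 1 to 2 without replicates 3 or 4 of DMSO or replicate 2 of 10 µM. The number that rose at 10 µM was 1 without replicates 1, 2 or 3 of DMSO, replicate 3 of 0.1 µM or replicates 1, 2, 3 or 4 of 10 µM. At 1 µM the number that fell was 1 without replicates 2 or 3 of DMSO or replicates 3 or 4 of 1 µM, and 1 rose with the share of reads in no feature as a covariate. Without the 3 farthest libraries 1 protease gene rose at 0.1 µM. At 0.1 µM, where edgeR called none in 4 of these lists, 2 of the other matrix genes, 6 of the transcription factors, 5 of the signal genes and 5 of the protease genes had an unadjusted p under 0.05, and DESeq2 called 1 protease gene and none of the others.

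**Figure D4:**
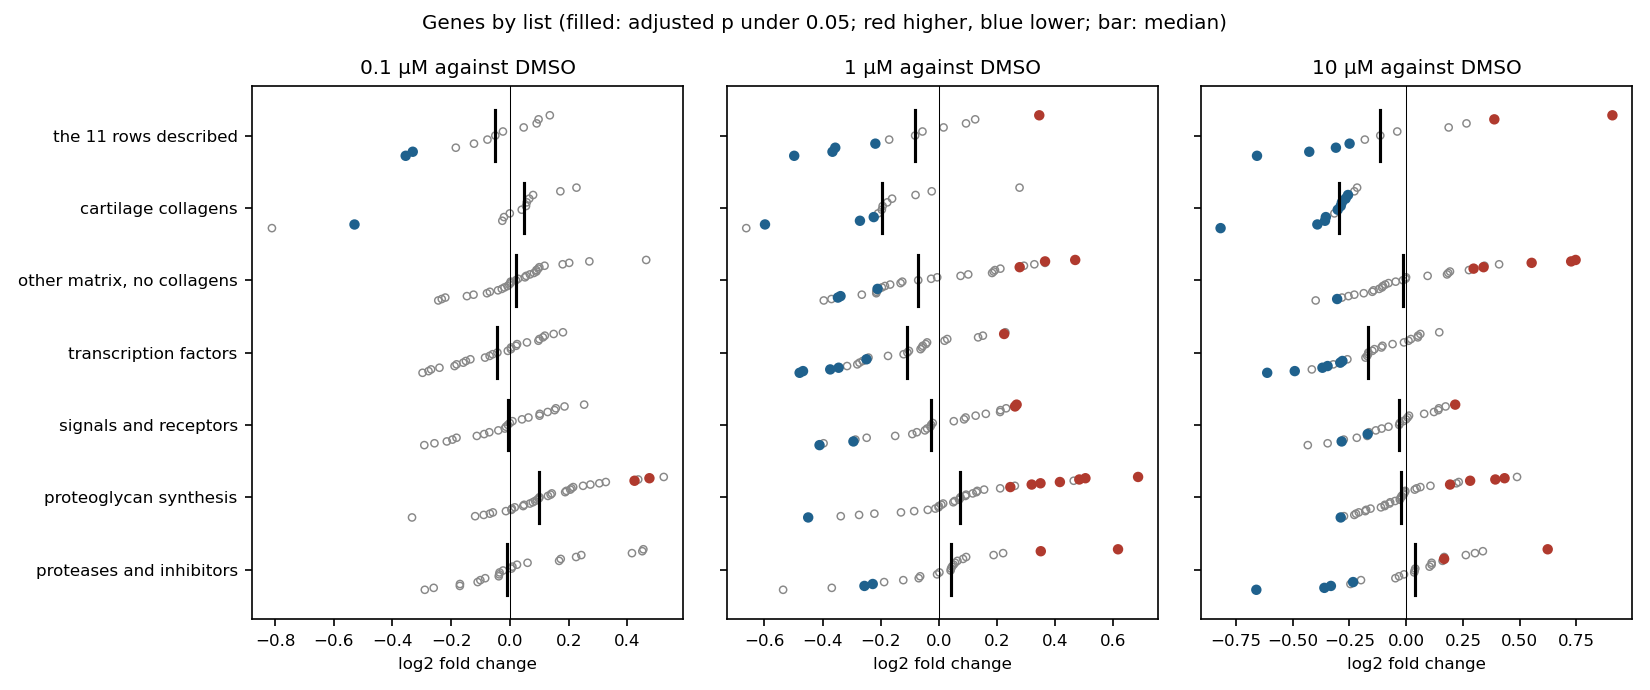
Log2 fold change of every tested gene against DMSO at 0.1 µM (left), 1 µM (middle) and 10 µM (right) for the 11 described genes and 6 lists of related genes; filled points have an adjusted p under 0.05 by edgeR (red higher, blue lower) and black bars are list medians. The collagens at 10 µM, median -0.30, all lie left of 0, while the 11 described genes have filled points on both sides.

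Marker lists of other tissues that hold matrix, or that SOX9 cells could be mixed with, are given for comparison. In either direction 3.43%, 12.4% and 18.3% of all genes passed at 0.1, 1 and 10 µM. The shares at these concentrations were 10%, 40% and 50% for the osteoblast list and 0, 16.7% and 50% for the notochord list. They were 0, 0 and 33.3% for tendon, 20%, 50% and 70% for epidermis and 0, 0 and 11.1% for fast muscle. Of 10 osteoblast genes 0 rose and 1 fell at 0.1 µM, 0 rose and 4 fell at 1 µM, and 1 rose and 4 fell at 10 µM, and their summed CPM was 849 to 941 at 0.1 µM, 838 to 885 at 1 µM and 795 to 899 at 10 µM, against 966 to 1097 in DMSO. The number that fell at 1 µM was 2 without replicate 2 of DMSO or replicates 1, 3 or 4 of 1 µM, 2 without the 3 farthest libraries and 1 with the share of reads in no feature as a covariate. The 1 that rose at 10 µM and the 1 that fell at 0.1 µM did not pass with that covariate either, and the rise was also lost with any one of 8 libraries left out. The fall at 0.1 µM was also lost without the 3 farthest libraries. The COL10A1 genes ENSDARG00000054753 and ENSDARG00000101535 are in this list as well as among the collagens. At 0.1 µM the lowest log2 fold change was the same in both lists, -0.81, so the fall counted in each may be of 1 gene. The osteoblast marker bglap was at 0 in every group. IFITM5, a gene of bone-forming cells, had 1.41 ± 0.560 CPM at 10 µM against 3.74 ± 0.858 CPM in DMSO (log2 -1.38 ± 0.23, adjusted p 0.000210). Of 6 notochord genes 0 rose and 0 fell at 0.1 µM, 0 rose and 1 fell at 1 µM, and 1 rose and 2 fell at 10 µM, with summed CPM of 191 to 257 at 0.1 µM, 191 to 252 at 1 µM and 193 to 258 at 10 µM, against 209 to 257 in DMSO. The fall at 1 µM and the rise at 10 µM, of 1 notochord gene each, were lost with the covariate. That fall was also lost without the 3 farthest libraries. Of 6 tendon genes 0 rose and 0 fell at 0.1 µM, 0 rose and 0 fell at 1 µM, and 0 rose and 2 fell at 10 µM, with summed CPM of 631 to 778 at 0.1 µM, 639 to 680.1 at 1 µM and 548 to 648 at 10 µM, against 674 to 719 in DMSO. Where edgeR called none, 1 notochord gene at 0.1 µM and 0 and 2 tendon genes at 0.1 and 1 µM had an unadjusted p under 0.05, and DESeq2 called none. Of 10 epidermis genes 1 rose and 1 fell at 0.1 µM, 0 rose and 5 fell at 1 µM, and 0 rose and 7 fell at 10 µM, with summed CPM of 9544 to 11724 at 0.1 µM, 8658 to 10129 at 1 µM and 8492 to 9395 at 10 µM, against 11485 to 13028 in DMSO. With the covariate 1 epidermis gene fell at 1 µM, and 0 rose and 0 fell at 0.1 µM. Without the 3 farthest libraries 0 epidermis genes fell at 0.1 µM and 1 rose at 10 µM. The number that rose at 0.1 µM was 0 to 2 without replicates 1 or 4 of DMSO, replicates 1, 2 or 4 of 0.1 µM or replicate 2 of 1 µM, and the number that fell at 10 µM was 4 without replicate 3 of DMSO or replicate 2 of 10 µM. Of 9 fast muscle genes 0 rose and 0 fell at 0.1 µM, 0 rose and 0 fell at 1 µM, and 0 rose and 1 fell at 10 µM, with summed CPM of 26283 to 28668 at 0.1 µM, 24722 to 30559 at 1 µM and 30476 to 31751 at 10 µM, against 28957 to 29995 in DMSO, and 1 and 0 had an unadjusted p under 0.05 at 0.1 and 1 µM, where DESeq2 called none either. The 1 that fell at 10 µM was lost with the covariate and with any one of 10 libraries left out. The part of these tissues in the levels of the 11 genes was not tested.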

How the data were processed

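RNA of whole zebrafish larvae was sequenced in 16 libraries (TruSeq Stranded total RNA with Ribo-Zero Gold, per the labels' protocols). The authors deposited whole-number read counts per Ensembl gene, with no normalization, and 5 summary lines per library. Trimmomatic, HTSeq, edgeR and the build GRCz10 appear in the submitters' processing notes, without versions. Counting was by reverse strand in union mode, as the names of the deposited tables say. For the aligner and the gene annotation, a name or release is not given in the sources used here. No coordinates are printed.

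Summary lines were kept out of library sizes and tests. Reads in no feature made up 31.4% to 40.4% of uniquely aligned reads, and reads not uniquely aligned 26.9% to 57.7% of all entries. The latter share averaged 29.2% in DMSO, 41.4% at 0.1 µM, 35.7% at 1 µM and 38.5% at 10 µM. Libraries of 10 µM, at 36.6% to 41.5%, all lay above those of DMSO, at 26.9% to 33.5%, and replicate 3 of 0.1 µM was at 57.7%. No fit used this share as a covariate, and its part in the results was not tested. Identifiers were matched to symbols for 26269 of 32105 genes, of which 4144 share their symbol and are told apart by identifier. Reads not uniquely aligned stand in a summary line and in no gene, so genes with a near-identical copy may be undercounted. Genes were filtered with filterByExpr by group, which left 21372, and scaled with TMM. All 16 libraries entered 1 model with a term for group, and each comparison was a quasi-likelihood F-test with robust settings (edgeR 4.0.16, R 4.3.3), adjusted by Benjamini-Hochberg over all genes. The common biological coefficient of variation was 0.0847. Standard errors were obtained by dividing a log2 fold change by the root of its F. A slope on the step from DMSO to 10 µM was fitted separately. The code was tested on simulated data. Ratios within a library, with 0.5 added to both counts, were compared by exact permutation.

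The genes described and the lists were chosen with earlier results of these data known. All described genes are named. From each list up to 4 genes per comparison with DMSO were eligible by smallest p, and not all are printed. Genes of like pattern are the 5 with the highest Pearson r to the mean of the described genes, at 1 CPM or more. Of the list names 11 matched no gene. Alternatives were DESeq2 1.42.0, its size factors, upper-quartile scaling, no filter, a fit of only the compared libraries, a replicate block, the share of reads in no feature as a covariate, and each library left out. Leaving out 3 libraries together was added after seeing the data. Replicate numbers were not used to pair the samples in the main fit, and 1 of 24 pairs of same-numbered libraries had deviations that correlate above 0.1. The labels give no clutch, and this check cannot exclude one shared by replicate number.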

Additional observations from a re-analysis of the deposited data

Results flagged for a closer look

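Of the 44 groups of 4 libraries formed by the 11 genes, 3 held a library whose gap to the next one was unusually large for its group, by Dixon's test. Chance gives about 1 in 20 groups. SOX9 ENSDARG00000043923 was at 13.9 CPM in replicate 2 of 10 µM. MATN3 ENSDARG00000069245 was at 92.5 CPM and MATN3 ENSDARG00000069265 at 12.8 CPM in replicate 4 of 0.1 µM, a library among those farthest from their groups over all genes. For MATN3 ENSDARG00000069265 that whole group lay between 12.8 and 13.6 CPM, with an SD of 2.90% of the mean. Its flag therefore marks a small gap in a tight group.

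In 4 genes the estimates against DMSO had opposite signs at 10 and 0.1 µM, and the direct test between the 2 concentrations passed in edgeR's quasi-likelihood test. The log2 difference of 10 µM from 0.1 µM was 0.44 for acana (adjusted p 0.000311), 0.45 for acanb (adjusted p 0.00278), 0.93 for MATN3 ENSDARG00000069265 (adjusted p 1.46e-05) and -0.52 for hapln1a (adjusted p 0.00127). The estimates at 0.1 µM did not pass the test against DMSO in any of the 4 genes. The direct test was passed by 21.4% of all genes, and how many of those also had opposite signs was not computed. With the share of reads in no feature as a covariate acana, acanb and hapln1a lost the direct call (adjusted p 0.0970, 0.187 and 0.126 by edgeR).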

How the results depend on the processing

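Of 1837 values for the 11 genes under 24 alternatives, 1763 kept their side of the threshold, 42 lost the call, 32 gained one and 0 called values turned in sign. The 2 genes called at 0.1 µM against DMSO became 1 with DESeq2 size factors, with the replicate block and with the 3 farthest libraries left out (chosen after seeing the data), 0 with the share of reads in no feature as a covariate (3 at an unadjusted p under 0.05), and 1 to 2 with single libraries left out. The 0 genes between 1 and 0.1 µM became 1 without the filter, in DESeq2 and with the replicate block, and 0 to 2 with single libraries left out. With the covariate 1 gene was called between 10 and 0.1 µM (5 unadjusted) and 0 between 10 and 1 µM (2 unadjusted), where leaving out single libraries gave 1 to 3. The covariate differs between the groups but does not follow concentration. Its mean was 33.2% in DMSO, 37.0% at 0.1 µM, 37.3% at 1 µM and 32.2% at 10 µM, and the cause was not tested. The ratio tests could hardly pass after adjustment over 6 tests, so their 66 alternatives say nothing of stability; the shift of the SOX9 ratio at 10 µM was 0.26 to 0.51 on the log2 scale with single libraries left out. The replicate block ended the call of SOX9 ENSDARG00000043923 at 0.1 µM (-0.33, adjusted p 0.0529), let MATN1 pass between 1 and 0.1 µM (-0.28, adjusted p 0.046), and changed no other call of the 11 genes. Over all genes, calls at 0.1 µM were 734, but 207 with the covariate, 487 in a fit of the compared libraries, 411 and 455 without DMSO replicate 3 or 4 and 1117 without 0.1 µM replicate 4. At 1 µM they were 2650, and 1076 with the covariate. At 10 µM they were 3921, and 2580 without replicate 2 of 10 µM. Between 1 and 0.1 µM they were 208, but 584 in DESeq2, 7 in a fit of the compared libraries, 17 without the 3 farthest libraries and 32 to 630 with single libraries left out. Between 10 and 0.1 µM they were 4567, but 275 with the covariate and 2961 without replicate 2 of 10 µM. Between 10 and 1 µM they were 1315, but 53 with the covariate and as few as 528 with single libraries left out. For any difference they were 5519, and 3145 with the covariate. Of 1872 list counts 216 moved by more than 1.5 times. Of 1872 values for the 78 called list results eligible to be named, 199 lost the call and 0 turned. Not all of these 78 are printed above. No scaling moved the median of all genes by 0.05 or more. The neighbour values and the correlations between genes were not recomputed.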
